A study of Drosophila melanogaster with 20 samples.

Results

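Brains of *Drosophila melanogaster* on diets of different protein and carbohydrate content were compared for the nuclear genes that encode the respiratory chain. The genes were taken by symbol: those that start with ND-, ATPsyn or UQCR, with COX and a digit from 4 to 8, or with Sdh and A, B, C or D, together with Cyt-c1 and RFeSP. Of 12441 genes in the male and female tables, 80 met this rule, 78 in each table and 76 in both. They comprise 62 subunit genes (33 of complex I, 4 of complex II, 7 of complex III, 7 of complex IV and 11 of complex V) and 18 copies of such genes, whose symbol is that of a subunit with L, L1 or L2 added and which are described apart.

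The respiratory chain lies in the inner mitochondrial membrane. Complex I takes electrons from NADH and complex II takes them from succinate, complex III passes them from ubiquinone to cytochrome c, complex IV passes them to oxygen, and complex V, the ATP synthase, uses the resulting proton gradient to make ATP. Complex II is encoded by nuclear genes alone, while the other complexes also hold subunits encoded in mitochondrial DNA, none of which was in the tables. Neurons draw most of their ATP from this pathway, and photoreceptors are among the cells richest in it.

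The flies were wild type (W1118), 4 to 7 days old, in 4 groups of 5 brain libraries, 20 in all. Males had eaten a low-protein, high-carbohydrate diet (LPHC, protein to carbohydrate 0:1, 180 g/L) or one high in protein and low in carbohydrate (HPLC, 1:1, 180 g/L), the diets with the longest and the shortest sleep in the study. For females LPHC was 1:2 at 360 g/L and HPLC was 1:1 at 90 g/L, so that the protein share, the total and the sex differ together and cannot be told apart. The labels do not say how many brains a library holds or whether libraries came from separate cultures, so a p-value here speaks only of the scatter among these libraries, part of which may be technical.

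Depth was 13901684 to 35077559 recovered reads per library, and a value is the authors' normalised read count, scaled within 1 sex. Differences are log2(value + 1), LPHC minus HPLC, tested with limma, and a gene passed where the Benjamini-Hochberg adjusted p over all genes tested was under 0.05. The choice of scale bears on direction: scaling the libraries to the same total moved the difference of the median gene by 0.25 in males and 0.16 in females, so balances between complexes inside a library, which scaling leaves unaltered but for the pseudocount, are given beside the tests.

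All 19 neuronal markers passed the filter in both sexes. In males 7 of them rose and 2 fell, with a summed share of 1.02% to 1.09% of reads on HPLC and 1.15% to 1.52% on LPHC, and in females 1 rose and 3 fell (0.453% to 0.599% against 0.491% to 0.639%). That is 47.4% called in males and 21.1% in females, beside 57.2% and 31.5% of all genes tested. Of 16 photoreceptor markers tested 4 rose and 2 fell in males (37.5% called) and 7 rose in females (43.8% called). They held 7.90% to 8.54% of reads on male HPLC, 8.34% to 10.1% on male LPHC, 3.16% to 4.93% on female HPLC and 5.02% to 6.44% on female LPHC, so genes of the retina were read in the libraries labelled brain. Of 22 muscle genes tested in males 19 rose and 1 fell, with a summed share of 0.481% to 0.589% of reads on HPLC and 0.896% to 1.15% on LPHC. Of 11 fat body genes 10 fell (1.62% to 1.78% against 0.318% to 0.448%), and of 14 glial genes 14 fell (0.327% to 0.360% against 0.197% to 0.229%). In females 2 muscle genes rose and 8 fell of 21 (0.365% to 0.477% against 0.356% to 0.458%), 1 fat body gene rose and 5 fell of 11 (2.38% to 3.21% against 2.04% to 2.37%), and the 3 yolk protein genes fell (12.3% to 15.1% against 6.75% to 8.62%). Of 14 glial genes in females 5 rose and 4 fell (0.355% to 0.433% against 0.391% to 0.448%), that is 64.3% called. In bulk tissue, fewer cells of a type and less RNA per cell cannot be told apart. The part of these marker changes in the results was not tested.

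Levels of the subunit genes spanned a wide range. Per kilobase of exon in male HPLC brains, the highest mean values were those of ATPsynC at 17875, the c subunit of the rotor ring, ATPsynbeta at 11387, the catalytic subunit, COX6B at 10619 and ATPsynF at 10613. At the low end stood UQCR-6.4 at 624.1 and UQCR-11 at 621.9, small subunits of complex III, and ND-MWFE at 23.0. Of the exon bases of UQCR-6.4, ATPsyndelta, ND-MWFE and ND-B22, 40.5%, 35.6%, 35.0% and 26.1% overlap other genes, and as the strandedness of the counting is not given in the sources used here, reads of these genes and their neighbours cannot be told apart. ND-B8 was listed only in the female table, with a mean value of 1.34 on HPLC and 8.47 on LPHC, too low to be tested. The 61 subunits in the male table together took 1.19% ± 0.0321 (SD, n = 5) of reads in male HPLC and 1.35% ± 0.0838 in male LPHC libraries, and the 62 in the female table took 0.933% ± 0.0855 and 0.975% ± 0.0819.

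On the deposited scale, 4 of 7 core subunits of complex I and SdhB of complex II rose in male brains on LPHC. On that scale 5 of 7 subunits of complex IV and 8 of 11 of the ATP synthase fell. Of 61 subunits tested 6 rose and 21 fell, that is 44.3%, where 57.2% of all 10115 genes tested were called (27.6% higher and 29.6% lower). The median difference of the subunits was -0.05, that of all genes 0.02. The largest difference was 0.431 in size and the median size 0.118, against 0.261 for all genes, and 0 of 61 subunits changed by a factor of 2 or more, against 10.9% of genes. The groups did not overlap for 17 subunits (27.9%), 6 of them higher and 11 lower, against 42.7% of genes (19.0% higher and 23.7% lower).

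**Figure D1:**
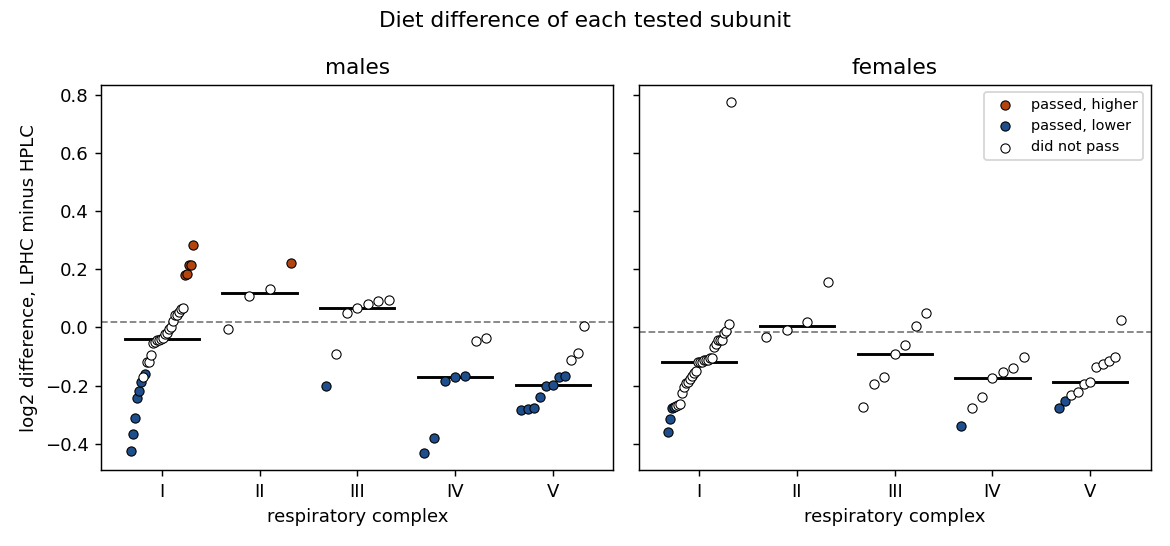
Log2 difference, LPHC minus HPLC, of each of the 61 subunits tested per sex (points), by complex, in males (left) and females (right). Filled points passed the test, black bars are the median of a complex and the dashed line is the median of all genes tested. In males, points of complexes IV and V lie mostly below the dashed line, and those that rose belong to complexes I and II.

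Complex I was split by role. The 7 core subunits form the path of electrons from NADH to ubiquinone, and 4 of them rose and 0 fell in males (median 0.18). That is 57.1% called, beside 57.2% of all genes (27.6% higher). ND-51 (FBgn0031771), the flavin-binding subunit that oxidises NADH, gave values of 9925, 9889, 9849.5, 9741 and 9542 on HPLC and 11912, 13651, 11963, 11414 and 10733 on LPHC. All 5 LPHC libraries lay above all 5 HPLC libraries, and LPHC replicate 2 was the highest. The mean rose from 9789 ± 154 to 11935 ± 1079.6 (SD, n = 5), a log2 difference of 0.28 (SE 0.06, limma adjusted p = 0.00125).

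ND-24 (FBgn0030853), the iron-sulphur partner of ND-51 in the NADH dehydrogenase module, had values of 2306, 2481, 2368, 2293 and 2271 on HPLC and 2812, 3053, 2664, 2568 and 2529.9 on LPHC. Its groups did not overlap (0.21, SE 0.06, limma adjusted p = 0.00514). ND-49 and ND-23, core subunits of the module that reduces ubiquinone, rose by 0.18 each (limma adjusted p = 0.00948 and 0.00863), again without overlap. ND-49 ran from 5119 to 5779.8 on HPLC and from 5961 to 6803 on LPHC. The remaining core subunits did not pass, with differences of -0.04 for ND-75, 0.05 for ND-20 and 0.02 for ND-30.

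Of the 25 accessory subunits of complex I tested in males, 1 rose and 7 fell (median -0.05). Over the whole complex 37.5% of subunits were called and 7 fell, and 11 fell without male LPHC replicate 2. Accessory subunits carry no redox centre and serve the build and stability of the complex. ND-13B (FBgn0047038), on the peripheral arm, fell by 0.42, from 1630.1, 1515, 1550.0, 1453 and 1536 on HPLC to 1188, 1239.8, 1108, 1144 and 1053 on LPHC (SE 0.06, limma adjusted p = 1.56e-05). The highest LPHC library was below the lowest HPLC library. ND-AGGG, on the membrane arm, fell by 0.37 from 1131 ± 39.2 to 879 ± 59.5 (SD, n = 5; limma adjusted p = 8.07e-05), with no overlap.

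ND-MLRQ fell by 0.31 (limma adjusted p = 0.000723), with values of 2589, 2504, 2618, 2598 and 2282 on HPLC and 1986, 2332, 1924, 1912 and 2006 on LPHC. Its groups overlapped through LPHC replicate 2. In mammals its homologue is counted with complex IV. The others that fell were ND-15, ND-ACP, ND-B15 and ND-B16.6, and the accessory subunit that rose was ND-19, by 0.22 (limma adjusted p = 0.0205) from 991 ± 81.3 to 1152 ± 103. Without male HPLC replicate 3, HPLC replicate 5 or LPHC replicate 1, ND-19 no longer passed (limma adjusted p = 0.0561, 0.0549 and 0.0536).

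Complex II, which links the citric acid cycle to the chain, gave 1 rise and 0 falls among 4 subunits in males, and 2 rises without LPHC replicate 1, without LPHC replicate 5, with TMM scaling, and with edgeR or DESeq2 on the recovered reads. SdhB (FBgn0014028), the iron-sulphur subunit of the catalytic head, had values of 6154, 6377, 6006, 5886 and 5336 on HPLC and 7021, 7973, 6493, 6805 and 6446 on LPHC. Its groups did not overlap, and it rose by 0.22 (SE 0.07, limma adjusted p = 0.0112). SdhA, the flavin-binding subunit that oxidises succinate, ran from 9354 to 9926 on HPLC and from 9999.6 to 11879.6 on LPHC, without overlap, and at 0.13 did not pass (limma adjusted p = 0.0558). The membrane anchors SdhC and SdhD were at -0.01 and 0.11 and did not pass.

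In complex III 0 of 7 subunits rose and 1 fell in males, and 2 fell without LPHC replicate 2. That was UQCR-11, a small subunit, at 1003 ± 56.1 on HPLC and 872 ± 60.2 on LPHC (log2 -0.20, SE 0.06, limma adjusted p = 0.0112). Its groups did not overlap, but after scaling to equal totals the difference was 0.05 (limma adjusted p = 0.499). The electron carriers Cyt-c1 and RFeSP, the Rieske iron-sulphur protein, were at 0.05 and 0.09 and did not pass.

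In complex IV the nuclear subunits surround a catalytic core encoded in mitochondrial DNA. In males 5 of 7 fell and 0 rose (median -0.17), where 29.6% of all genes fell. This count belongs to the deposited scale. At the same total 2 rose and 2 fell (median 0.08), and at the same upper quartile 0 rose and 2 fell (median -0.005). COX7A (FBgn0040529) had the largest difference of any subunit, with 5577, 5775, 5956, 5633 and 5642 on HPLC and 4245, 4912, 4027, 4143 and 3934 on LPHC. Every LPHC library was below every HPLC library, and the difference was -0.43 (SE 0.06, limma adjusted p = 2.66e-05).

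COX6B (FBgn0031066), a subunit on the cytochrome c side of the complex, had values of 8112, 8673, 8643, 8201 and 8263 on HPLC and 6819, 6753, 6418, 6252 and 5931 on LPHC. It fell by 0.38 without overlap (SE 0.05, limma adjusted p = 2.02e-05). COX5B fell by 0.19 (limma adjusted p = 0.0142) and was at 0.06 with libraries scaled to the same total (limma adjusted p = 0.298). COX4 and COX5A also fell, while COX7C and COX8, at -0.05 and -0.04, did not pass. With edgeR on the recovered reads 3 of the 7 fell, and 3 fell with any 1 of male LPHC replicates 1, 3 and 5 and HPLC replicates 1 and 2 left out.

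**Figure D2:**
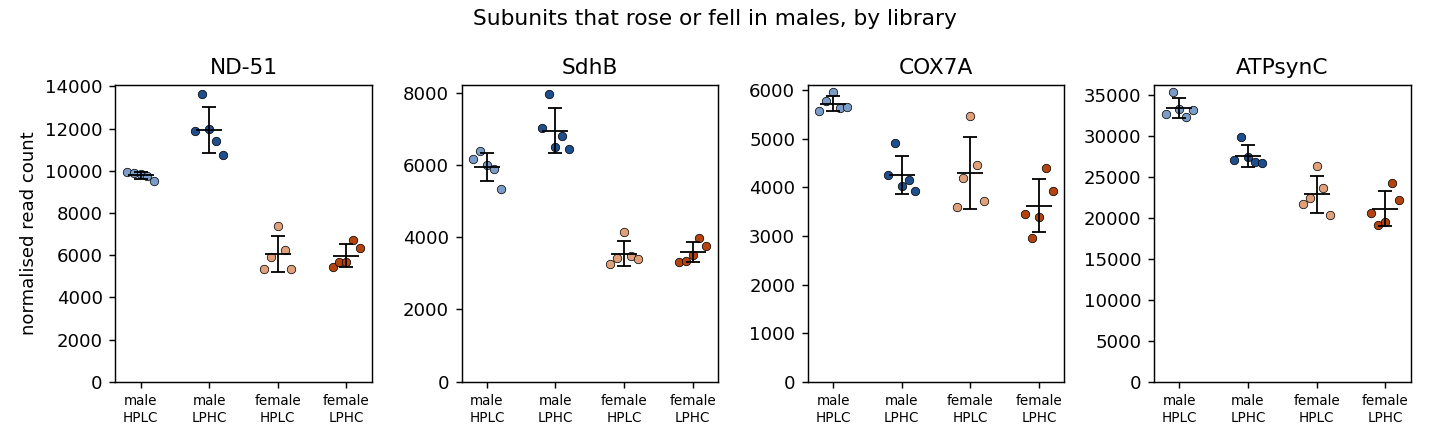
Normalised read count per library (points) of ND-51, SdhB, COX7A and ATPsynC in the 4 groups, with the mean and SD over 5 libraries. In males the 5 LPHC values of ND-51 and SdhB lie above, and those of COX7A and ATPsynC below, all HPLC values, while in females the diets overlap for all 4 genes. Levels of males and females were scaled separately and are not compared.

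In complex V 8 of 11 ATP synthase subunits fell and 0 rose in males (median -0.20), where 29.6% of all genes fell. ATPsynC (FBgn0039830) fell by 0.28, from 32677, 35424, 33306, 32346 and 33201 on HPLC to 27102, 29843, 27419.5, 26873 and 26659 on LPHC (SE 0.06, limma adjusted p = 0.000899). The groups did not overlap, although LPHC replicate 2 stood above the other LPHC libraries. ATPsyngamma, the shaft of the central stalk, fell by 0.28 from 7902 ± 253 to 6517 ± 402 (limma adjusted p = 0.000419), with no overlap.

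ATPsynO, which ties the peripheral stalk to the head, fell by 0.28 (limma adjusted p = 0.00195), with 6079, 6234, 6100.1, 5862 and 5998 on HPLC and 4741, 5969, 4820.1, 4786 and 4636 on LPHC. Its groups overlapped through LPHC replicate 2. The catalytic subunit ATPsynbeta, at -0.11, did not pass (limma adjusted p = 0.108), nor did ATPsynB and ATPsynCF6 of the peripheral stalk. These falls belong to the deposited scale: after scaling to equal totals, 3 complex V subunits rose, 0 fell and the median was 0.05. Relative to the median of all genes the complex V median was -0.22 and -0.21 on these scales.

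Under each of 5 scalings (as deposited, same total with and without yolk genes, same upper quartile and TMM), 11 members stayed higher and 4 lower in males. The higher ones were ND-51, ND-24, ND-49, ND-23, ND-19, SdhB and the copies ND-49L, SdhBL, COX6AL, COX7AL and COX7AL2. The lower ones were COX7A, COX6B, ND-13B and UQCR-11L. ND-49L, SdhBL, COX6AL and UQCR-11L met the filter on low values only through the diet group where they are high. Their places here are descriptions. Every other scaling moved the male median gene up, by 0.02 (TMM) to 0.25 (same total). The rises as deposited were therefore bound to keep their direction, and only the falls were put to a test, with UQCR-11L left as a description. The scalings to the same total with and without yolk genes were nearly alike in males (0.2486 and 0.2483). At the same total 42 members rose and 4 fell, and at the same upper quartile 28 and 7, against 11 and 23 as deposited. Among the subunits by complex, with the copies left out, the rises and falls at the same total were 22 and 1 for I, 4 and 0 for II, 6 and 0 for III, 2 and 2 for IV, and 3 and 0 for V.

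The balance between complexes was then read inside each library, in contrasts chosen after the values were seen. It is the mean log2 value of one complex minus that of another. ND-MWFE, an accessory subunit of complex I with low values, was left out of these means. Complex II stood against complex V at -0.68 to -0.62 in the male HPLC libraries and at -0.36 to -0.34 in the male LPHC libraries, a gap of 0.30 on the log2 scale with no overlap. In females the range was -0.996 to -0.918 on HPLC and -0.82 to -0.72 on LPHC, a gap of 0.20, also with no overlap. Against complex IV, complex II was higher on LPHC by 0.32 in males and 0.24 in females, without overlap in either sex.

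The core of complex I gained on its accessory subunits other than ND-MWFE in both sexes. In males the difference was 1.21 to 1.27 on HPLC and 1.43 to 1.48 on LPHC, and in females it was 1.07 to 1.12 and 1.15 to 1.25. Neither pair of ranges overlapped, but in females this holds only with ND-MWFE left out. Complex IV and complex V kept close to each other, with a shift of -0.02 in males and -0.04 in females and overlapping libraries. Complex I against V and complex III against V shifted by 0.14 and 0.20 in males without overlap, and by 0.02 and 0.06 in females with overlap.

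**Figure D3:**
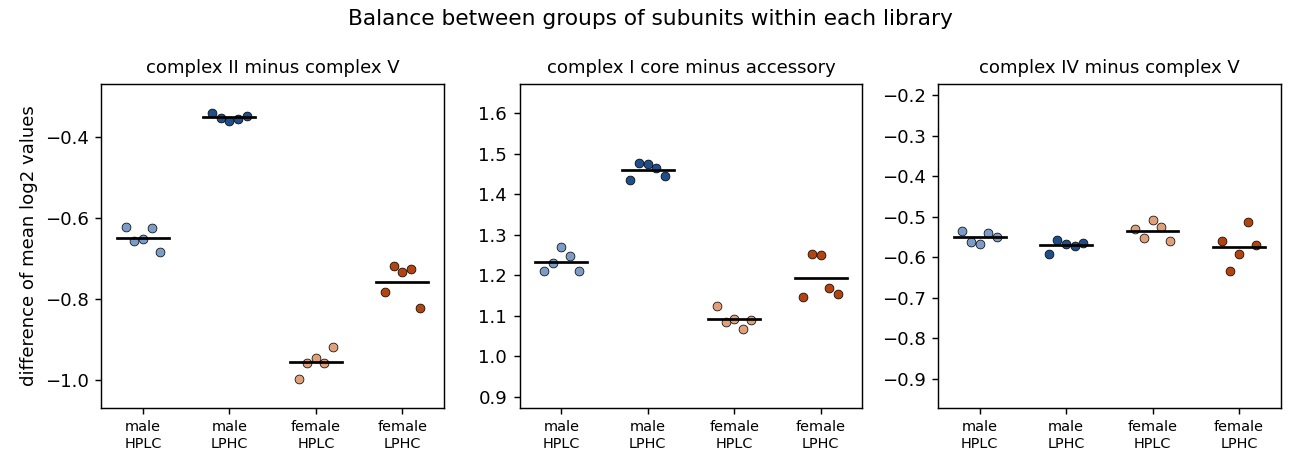
Difference of mean log2 values between groups of subunits within each library (points; bars are means of 5): complex II minus V, complex I core minus accessory subunits, and complex IV minus V. ND-MWFE was left out of the means. The first contrasts separate the diets without overlap in both sexes, and complex IV minus V overlaps in both. For core minus accessory subunits in females, the separation holds only without ND-MWFE. Each panel spans the same height.

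Subunits whose genes have more exon bases, merged over all transcripts of a gene, tended to stand higher on LPHC. This is a description over genes that share libraries and are not replicates. Over 60 subunits (ND-MWFE left out) Spearman's rho between exon length and the difference was 0.295 in males and 0.596 in females, against 0.082 and -0.053 over all genes tested with a length. The male and female differences of these subunits had a rho of 0.393, against -0.051 over all genes tested in both sexes.

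In female brains 0 subunits rose and 7 fell of 61 tested, that is 11.5%, where 31.5% of 9932 genes were called (16.7% higher and 14.8% lower). The subunits that fell were ND-B14.5A, ND-B12, ND-AGGG and ND-B16.6 of complex I, COX8 of complex IV, and ATPsynF and ATPsynG of the membrane sector of complex V. All are small subunits without a redox centre. The median difference over the 61 subunits was -0.14 (all genes -0.02), and in 0 of 61 did the groups fail to overlap, against 22.1% of genes (10.1% lower).

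COX8 (FBgn0263911), a small subunit of complex IV, had values of 1535, 1524, 1849.6, 1567 and 1319 on HPLC and 1138, 1046, 1171, 1442 and 1368 on LPHC. HPLC replicate 3 and LPHC replicate 4 were the highest of their groups, and the groups overlapped. The difference was -0.34 (SE 0.10, limma adjusted p = 0.0196). ND-B14.5A, on the peripheral arm of complex I, had values of 894, 928, 1202, 899.6 and 781 on HPLC and 654, 672, 676, 904 and 754 on LPHC, and fell by 0.36 (SE 0.11, limma adjusted p = 0.0261).

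ND-B12 fell by 0.32 (limma adjusted p = 0.0363), ATPsynF by 0.28 (0.0309), ND-AGGG by 0.28 (0.0274), ND-B16.6 by 0.27 (0.0248) and ATPsynG by 0.25 (0.0308), the bracketed values being limma adjusted p. ND-AGGG, ND-B16.6, ATPsynF and ATPsynG also fell in males. Of complex II, 0 of 4 subunits passed, with SdhA at 0.16 and SdhB at 0.02, and of complex III 0 of 7. ND-MWFE, at mean values of 10.3 and 18.3, had a difference of 0.77 and did not pass (limma adjusted p = 0.0722). The median was 0.01 for complex II, -0.09 for complex III, -0.17 for complex IV and -0.19 for complex V.

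With libraries scaled to the same total, 7 female members rose and 0 fell, against 2 and 7 as deposited, and at the same upper quartile 2 rose and 3 fell. The 2 rises as deposited were those of the copies ATPsynbetaL and ND-49L. Both met the filter on low values only through LPHC, where they are high, so these rises are descriptions. Each of the 7 falls as deposited was lost in between 1 (COX8) and 8 (ND-B12) of 10 fits that left out 1 library.

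The female count moved with single libraries. In HPLC replicate 3, 54 of 61 subunits had the highest value of their group, with a median log2 deviation from the group mean of 0.23 against 0.03 for all genes, and in LPHC replicate 4 this held for 50 subunits (0.20 against 0.01). HPLC replicate 5 was the lowest for 48 subunits and LPHC replicate 2 for 39. Without LPHC replicate 4 the number of members that fell was 18 and without HPLC replicate 5 it was 15. Without LPHC replicates 1, 2 and 3 in turn it was 1, 0 and 1, and without HPLC replicates 2, 3 and 4 it was 2, 2 and 3. Without both HPLC replicate 3 and LPHC replicate 4 it was 9, a choice made after seeing the data.

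The subunits moved together between libraries of a male group as well. LPHC replicate 2 was the highest for 57 of 61 subunits, with a median deviation of 0.17 against 0.02 for all genes, and LPHC replicate 5 the lowest for 42. In LPHC replicate 2 ribosomal protein genes deviated by 0.23 and muscle markers by 0.24, photoreceptor markers by 0.14 and neuronal markers by -0.02. In female HPLC replicate 3 these medians were 0.10, 0.23, 0.21 and -0.15, and in female LPHC replicate 4 they were 0.16, 0.00, 0.19 and -0.08. Depth in these 3 libraries was 16109836, 23536956 and 27074906 reads, and the part of markers and depth in the shared movement was not tested.

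**Figure D4:**
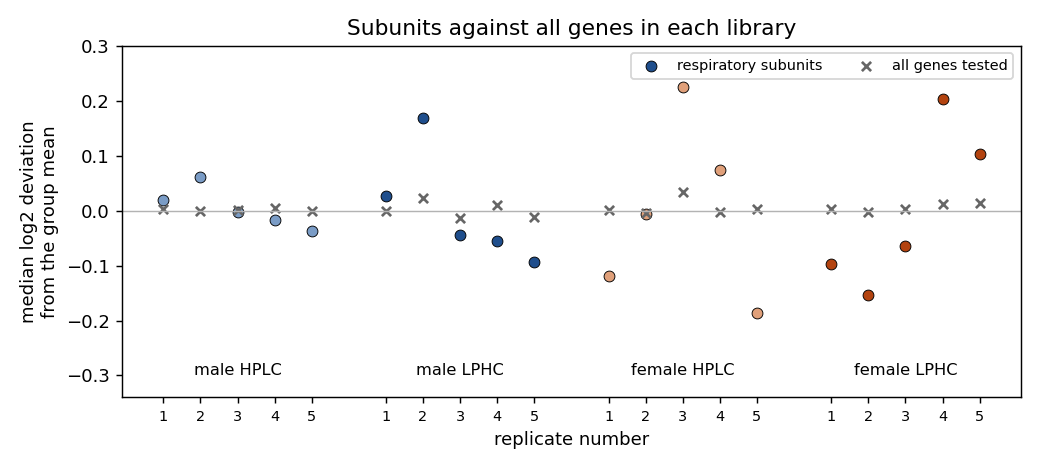
Median log2 deviation from the group mean of the 61 respiratory subunits (circles) and of all genes tested (crosses) in each of the 20 libraries, by group and replicate number. The subunits deviate by up to 0.23 in female HPLC replicate 3 while the crosses of all 20 libraries lie between -0.0126 and 0.0341. Replicate numbers only name libraries.

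The diet difference was compared between the sexes in 1 limma fit. The value compared is the signed difference in males minus that in females, which tells nothing of which change is larger in size. Of 67 members tested it was positive for 7 and negative for 3 (14.9%), where 52.3% of 9766 genes were called (22.7% positive and 29.6% negative). Among the subunits that passed, ND-19 differed most, at 0.22 in males and -0.27 in females (difference 0.49, SE 0.14, limma adjusted p = 0.00507). ND-49 and ND-23 were at 0.18 each in males and -0.10 each in females (0.29 for both, limma adjusted p = 0.0179 and 0.0411).

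ND-51 was at 0.28 and -0.01 (0.29, limma adjusted p = 0.038), a call lost in 11 of 20 fits that left out 1 library. COX6B fell in males and did not pass in females, at -0.38 against -0.10 (-0.28, limma adjusted p = 0.0198), a call lost when libraries were brought to equal totals or upper quartiles. ND-B12 and COX8 fell in females by 0.32 and 0.34 and were at 0.07 and -0.04 in males (limma adjusted p = 0.0239 and 0.0484), and the ND-B12 call was lost in 2 of 20 such fits. The count of positive values was 12 without female LPHC replicate 4, 3 without female HPLC replicate 4, and 4 with any 1 of female LPHC replicates 1 and 2, female HPLC replicate 3, male LPHC replicate 2 and male HPLC replicates 3, 4 and 5 left out. At the same total it was 18. The count of negative ones was 5 without female HPLC replicate 3. The positive calls of COX7AL2, ND-19 and ND-49 were lost in 0 of 20 fits that left out 1 library. They are the 3 left without female HPLC replicate 4, so the calls of ND-23 and COX8 were lost there too.

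The copies of subunit genes were read far less than their parents and held the largest differences among the members. Per kilobase in male HPLC brains, ATPsynbetaL stood at 10.7 and ATPsynbeta at 11387. In *Drosophila* many such copies of mitochondrial genes are known for expression in the testis. The 17 in the male table together took 0.000715% of reads in HPLC and 0.00117% in LPHC libraries, and the 16 in the female table took 0.000619% and 0.00111%. In males 9 passed the filter on low values, 5 of which rose and 2 fell, and in females 6 passed it, 2 of which rose. The filter asks for a value of 10 in 5 libraries, and for 7 of the 9 calls over both sexes only the diet group where the copy is high met it alone, so that the copy was tested through that group. These were ND-49L in both sexes, COX6AL, SdhBL, UQCR-11L and ATPsynbetaL in males and ATPsynbetaL in females, and their calls are descriptions with no weight of their own. COX7AL and COX7AL2 in males reached 10 in all libraries of both groups. The copies listed but not tested had group means of 0.58 (SdhAL) to 6.98 (COX7CL) in males and 0.225 (COX6AL2) to 11.8 (COX4L) in females. Reads of a copy and its parent may have been split by the counting, which the sources used here do not give, so the copies' values are uncertain.

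ATPsynbetaL (FBgn0036568), a copy of the catalytic subunit ATPsynbeta, had values of 6.57, 8.99, 16.8, 18.5 and 6.48 in female HPLC and 92.5, 70.8, 58.9, 46.7 and 52.1 in female LPHC libraries. All 5 LPHC values were above all HPLC values, and the difference was 2.47 (SE 0.30, limma adjusted p = 1.60e-05). ATPsynbeta itself was at 0.03 in females (limma adjusted p = 0.869), with 18902 ± 2703 on HPLC and 19181 ± 1923 on LPHC (SD, n = 5).

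In males ATPsynbetaL went the other way, with 19.2, 20.8, 29.6, 18.6 and 20.3 on HPLC and 4.38, 15.3, 6.61, 25.6 and 6.46 on LPHC, overlapping through LPHC replicate 4 (-1.08, SE 0.39, limma adjusted p = 0.0295). The male call was lost with edgeR and DESeq2 on the recovered reads (adjusted p = 0.0952 and 0.0701) and without male HPLC replicate 3 or LPHC replicates 1, 3 or 5 (limma adjusted p = 0.0718, 0.0729, 0.0637 and 0.068). The difference between the sexes was -3.55 (SE 0.52, limma adjusted p = 5.78e-06). ATPsynbetaL met the filter only through HPLC in males and only through LPHC in females, in each sex the group where it is high. This difference too is therefore a description with no weight of its own.

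ND-49L, a copy of ND-49, was higher on LPHC in both sexes without overlap, but in each sex reached the filter value of 10 in 2 of 5 HPLC libraries and in all 5 LPHC libraries. Its values were 4.8, 8.48, 6.58, 11.2 and 15.5 in male HPLC and 33.6, 16.7, 20.9, 17.3 and 23.4 in male LPHC (1.23, SE 0.32, limma adjusted p = 0.00423). In females they were 3.29, 6.74, 4.2, 12.3 and 11.7 on HPLC and 23.3, 25.4, 39.2, 17.6 and 15.5 on LPHC (1.62, SE 0.38, limma adjusted p = 0.00396). ND-49 itself was at 0.18 in males and -0.10 in females.

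COX6AL, a copy of the COX6A gene levy, rose by 1.33 in males (limma adjusted p = 0.0019) from 11.6 ± 4.93 to 29 ± 6.96 (SD, n = 5), with no overlap. COX7AL2 and COX7AL, copies of COX7A, rose by 1.07 (0.00181) and 0.78 (0.0358), and SdhBL rose by 0.97 (0.00811), the bracketed values being limma adjusted p, while COX7A itself fell. The COX7AL call was lost with any 1 of male HPLC replicates 1, 2, 3 and 4 and LPHC replicates 3 and 5 left out, with limma adjusted p up to 0.101. COX7AL2 was at -0.59 in females (limma adjusted p = 0.0649), and the sexes differed by 1.66 (limma adjusted p = 0.000315).

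The other copies tested did not pass: COX4L at 0.00 and UQCR-6.4L at 0.21 in males, and SdhBL at 0.06 and UQCR-6.4L at -0.71 in females. UQCR-11L fell in males by 1.45 (limma adjusted p = 0.00726) and was at 0.55 in females (0.0919), a difference of -1.999 (limma adjusted p = 0.00173). As UQCR-11L met the filter in males only through HPLC, where it is high, this difference too is a description. Beside these copies, 18 testis genes in each table, of a list of 32, summed to 0.0232% of reads in male HPLC and 0.0310% in male LPHC libraries, and to 0.0126% and 0.0129% in females. Of 9 testis genes tested 2 rose and 2 fell in males and 1 rose in females. That is 44.4% and 11.1% called, beside 57.2% and 31.5% of all genes. The part of testis-type expression in the copies' changes was not tested.

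**Figure D5:**
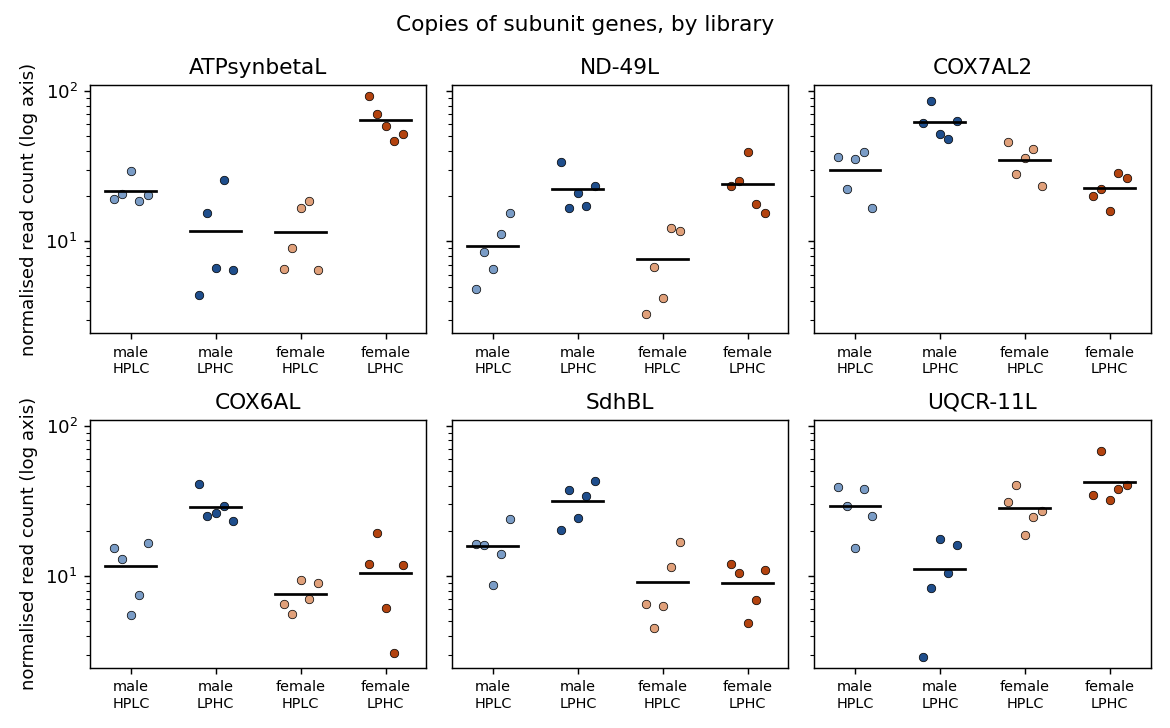
Normalised read count per library (points, log axis; bars are means of 5) of 6 copies of subunit genes in the 4 groups. ATPsynbetaL and ND-49L separate the diets in females and ND-49L, COX7AL2 and COX6AL in males without overlap. Levels of the sexes were scaled separately and are not compared.

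Subunits that carry other symbols moved within the same range. In males blw, the alpha subunit of ATP synthase, fell by 0.19 (limma adjusted p = 0.00695) and cype, a subunit of complex IV, by 0.20 (0.0109), while Cyt-c-p, the somatic cytochrome c, rose by 0.20 (0.0117), the bracketed values being limma adjusted p. The calls of blw and cype belong to the deposited scale: at the same total they were at 0.06 and 0.05. Neither levy, sun, ox nor Cyt-c-d passed in males, and 0 of 6 tested passed in females, where Cyt-c-p was at 0.21 (limma adjusted p = 0.0503).

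Of 54 names listed as assembly factors of the complexes, 13 were found in the male table, and all were tested. Of these 13, 8 rose and 1 fell in males (median 0.20), that is 69.2% called, beside 57.2% of all genes (27.6% higher). Ttc19, a factor of complex III, rose by 0.52 from 524 ± 30.7 to 751 ± 46 (SD, n = 5; limma adjusted p = 7.54e-06). Sdhaf3, which serves the maturation of SdhB, rose by 0.57 (limma adjusted p = 0.000545), and Cchl, which attaches haem to cytochrome c, by 0.36 (0.000498). In females 1 of 13 rose and 1 fell (15.4% called, beside 31.5% of all genes): bsf rose by 0.32 (limma adjusted p = 0.00684), and Ttc19 fell by 0.29 (0.039), a call lost in 8 of 10 fits that left out 1 library.

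Among carriers of phosphate and ADP, Mpcp1 rose by 0.86 and Mpcp2 fell by 0.57 in males (limma adjusted p = 2.64e-07 and 8.97e-07). Both carry phosphate to the ATP synthase, and Mpcp2 stood at 26660.5 ± 599.5 on HPLC and 18022 ± 1072 on LPHC (SD, n = 5) without overlap. In females Mpcp1 fell by 0.60 (limma adjusted p = 0.0122). Ucp4A, listed with these carriers, rose by 0.21 in males and fell by 0.43 in females (limma adjusted p = 0.00183 and 0.0001125). Porin2, a copy of the outer membrane channel gene porin, rose in females by 2.79 (limma adjusted p = 1.38e-05). Its values went from 9.01 ± 4.19 on HPLC to 65.5 ± 20.2 on LPHC (SD, n = 5). As the HPLC mean was below the filter value, Porin2 met the filter only through LPHC, where it is high. This call too is therefore a description with no weight of its own.

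Of 14 genes for other electron donors and for ubiquinone synthesis, 4 rose and 3 fell in males (7 of 14 called, beside 57.2% of all genes) and 1 rose in females (7.14% beside 31.5%). Etf-QO, which passes electrons from fatty acid and amino acid oxidation to ubiquinone, fell by 1.14 from 4509.9 ± 219 to 2062 ± 301, and wal, its electron-transferring partner, fell by 1.17 (limma adjusted p = 3.76e-08 and 1.56e-08). Neither passed in females, at 0.08 and 0.10. Coq7, an enzyme of ubiquinone synthesis, rose by 0.68 in males (limma adjusted p = 4.95e-07), and Gpo2, a glycerol-3-phosphate dehydrogenase, rose by 2.01 in females (7.78e-08).

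Regulators of mitochondrial biogenesis and of mitochondrial DNA expression were 20 genes tested per sex, of which 11 rose and 2 fell in males (65.0% called, beside 57.2% of all genes) and 6 rose and 1 fell in females (35.0% beside 31.5%). In males Opa1, of inner membrane fusion, rose by 0.36 (limma adjusted p = 4.41e-06) and Pink1, of mitochondrial quality control, by 0.42 (4.41e-06). PolrMT, the polymerase that transcribes mitochondrial DNA, rose by 0.45 in males and by 1.51 in females, in the latter from 476 ± 42.8 to 1374 ± 267 (SD, n = 5; limma adjusted p = 3.32e-05 and 8.96e-08). Myc rose in females by 1.12 (limma adjusted p = 7.39e-05). srl, the fly PGC-1 coactivator, rose in females by 1.05 (limma adjusted p = 5.00e-05) and was at -0.09 in males (0.267). Of 61 female subunits 0 rose as deposited and 4 at the same total, and a link between srl and the subunits was not tested.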

How the data were processed

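RNA of W1118 fly brains was sequenced in 20 libraries. The submitters' processing notes name HISAT2 as the aligner. How reads were counted, on which build and annotation and whether by strand, is not given in the sources used here; no coordinates or sequences are therefore printed. The authors deposited a signal, each library's gene counts divided by its size factor, in 1 table per sex; DESeq2 normalisation and the removal of long non-coding RNAs are known only from the deposited tables' names. Whole reads were recovered from these values, of which 100% came out whole within 0.01 of a read, and 0 sample columns were unused. No pair of libraries of a group agreed within sampling noise (smallest chi-square per degree of freedom 7.55, over genes with 20 or more reads).

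The main test was limma 3.58.1, run under R 4.3.3 on log2(value + 1) with a trend on intensity, 2-sided, over genes that reached a value of 10 in at least 5 libraries, Benjamini-Hochberg adjusted over all of them, threshold 0.05. Fold changes on this scale understate the change of low genes. On simulated reads with 50 genes changed at each size, 52%, 88%, 94% and 100% of log2 changes of 0.32, 0.58, 1 and 2 were recovered in the male comparison (10115 genes) and 12%, 68%, 94% and 100% in the female one (9932 genes). Alternatives were edgeR 4.0.16 and DESeq2 1.42.0 on the recovered reads, other filters, pseudocounts and scalings, each library left out and the replicate number as a block. Exon lengths and overlaps came from the Ensembl release named in the reference, in which 80 of 80 members and 12108 of 12441 gene names were matched.

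The members and the gene lists were chosen with earlier results of these data known, and the roles, the copies of levy, cype and sun, and the balances within libraries were set after seeing the tables. Genes are named by a rule: per sex and complex up to 3 members with the smallest adjusted p in each direction, per sex the 3 members with the largest and the 3 with the smallest difference, 5 members in each direction with the smallest p between the sexes, all copies, all subunits with other symbols, and up to 3 called genes of each pathway list. Members named beside these were chosen after their values were seen.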

Additional observations from a re-analysis of the deposited data

Results flagged for a closer look

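Of 158 groups of 5 libraries examined for a library far from the other 4, 13 held one; chance alone gives about 5% of groups. Male LPHC replicate 2 stood above the other LPHC libraries for ATPsynC (29843, others 26659 to 27419), ATPsynO (5969, others 4636 to 4820.1), ND-MLRQ (2332, others 1912 to 2006) and sun (1992, others 1549 to 1643). Male HPLC replicate 3 stood above its group for COX5B (3366, others 3158 to 3217), UQCR-11 (1100.2, others 961 to 998), ATPsynbetaL (29.6, others 18.6 to 20.8) and Cyt-c-d (26.3, others 6.72 to 11.6), and male HPLC replicate 5 below it for ND-49 (5119, others 5642 to 5779.8). In females HPLC replicate 3 was low for ND-MWFE (5.25, others 10.6 to 12.4), HPLC replicate 5 was high for srl (322.5, others 190.6 to 219), and LPHC replicate 2 was high for PolrMT (1847, others 1207 to 1292) and UQCR-11L (67.9, others 31.9 to 40.2).

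The diet difference differed between the sexes for 10 members, by limma with adjustment over all genes. The signed difference in males minus that in females was positive for COX7AL2 (1.66 on the log2 scale), ND-19 (0.49), ND-B12 (0.38), COX8 (0.30), ND-51 (0.29), ND-49 (0.29) and ND-23 (0.29). It was negative for ATPsynbetaL (-3.55), UQCR-11L (-1.999) and COX6B (-0.28). ATPsynbetaL in both sexes and UQCR-11L in males met the filter only through the diet group where they are high, so their values are descriptions. The sign does not say in which sex the change was larger in size: COX8 and ND-B12 fell in females and did not pass in males, while COX6B fell in males. Sex and diet recipe cannot be told apart in these values.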

How the results depend on the processing

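The scale of the libraries decided the counts. As deposited, 11 male members rose and 23 fell (median -0.04); at the same total, with or without yolk genes, 42 rose and 4 fell (median 0.21), and at the same upper quartile 28 and 7 (median 0.12). In females 2 rose and 7 fell as deposited (median -0.13), 7 and 0 at the same total (median 0.0376), 0 fell without yolk genes and 3 at the same upper quartile. The female rises as deposited were copies that met the filter only through LPHC, where they are high. The same kind of limit holds for the male calls of ND-49L, COX6AL, SdhBL, UQCR-11L and ATPsynbetaL. Positive values of the male minus the female difference numbered 7 as deposited, 18 at the same total, 31 without yolk genes and 19 at the same upper quartile. The male values of COX5B, UQCR-11, blw, cype and levy turned to 0.0644, 0.0472, 0.0597, 0.0513 and 0.226 at the same total, and to 0.0641, 0.0469, 0.0594, 0.051 and 0.226 without yolk genes; here the scaling moved every gene alike. With a minimum value of 50 in place of 10, which leaves out most copies, 6 male and 0 female members rose and 1 male minus female difference was negative, and with no filter 5 female members rose.

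Leaving out 1 library at a time gave 9 to 11 male rises, 18 to 29 falls and medians of -0.08 to -0.02. In females it gave 2 to 3 rises, 0 to 18 falls and medians of -0.18 to -0.07, and 3 to 12 positive and 3 to 5 negative male minus female differences. edgeR called 12 rises and 20 falls in males and 3 and 7 in females, DESeq2 12 and 23, and 2 and 10. Libraries with the same number did not deviate together (correlations of -0.23 to 0.05, none highest with its own number), so the numbers do not pair them; with the replicate block 10 male members rose and 24 fell, and 3 and 2 in females. On simulated female reads 12% of log2 changes of 0.32 were recovered, and smaller changes were not simulated. Copies with values near 10 rest on few reads.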
